A study of Rattus norvegicus with 3 samples.

Results

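The translation initiation and elongation factors form a set of 56 genes among the 14217 genes measured on 3 Affymetrix arrays of the rat kidney medullary thick ascending limb (mTAL). The members are the genes whose symbol begins with Eif and a digit of the initiation factor families, or with Eef and a digit of the elongation factor families, the Eif2ak kinases being left out. They had 88 of the 20826 probe sets that carry a single gene, and each gene was read from its brightest probe set by mean log2. The rule uses the symbols, and measured values only to pick the brightest probe set.

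All 3 arrays belong to 1 group, and no other tissue, treatment or genotype was profiled. The mTAL came from male Sprague-Dawley rats aged 7 to 8 weeks, which had received furosemide, a loop diuretic (1 mg), together with 250 u heparin 30 min before decapitation. The outer medulla was digested for 60 min with collagenase and hyaluronidase, and the tubules were collected on a Percoll gradient of 33.3%. No label states whether the arrays hold RNA of separate rats or of pools, so every p-value reflects how these 3 samples vary, and that variation may be technical.

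Initiation factors bring the initiator tRNA, the small ribosomal subunit and the mRNA together, open the structure near the mRNA cap, and find the start codon. Elongation factors then deliver each aminoacyl-tRNA and move the ribosome along. The kinase mTORC1 controls the cap-binding step through inhibitor proteins, and stress kinases lower initiation by phosphorylating eIF2. Both controls act mainly on proteins that are already made, which arrays of RNA do not measure. The mTAL itself is a nephron segment that reabsorbs sodium chloride at a high rate.

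Transcripts of 53 of the 56 factors (94.6%) gave a signal above background, against 53.3% of all 14217 genes. Background was judged on each array from 70 genes typical of organs such as brain, pancreas, skeletal muscle and retina, whose 95th percentile served as the cutoff. It lay at a signal of 411, 379 and 390 on replicates 1, 2 and 3. The limma test of log2 signal minus cutoff, one-sided, gave adjusted p-values from 8.89e-05 to 0.00825 for the 53 genes, 27 of which had one under 0.0001. The 3 genes that were not called were Eef1a2, Eef1akmt4 and Eif5a2. In all, 24 members lay in the top 10% of genes by signal, 37 in the top 25%, and 5 below the median gene. The median member stood 2.57 ± 0.05 log2 units above the median gene (SD over arrays, n = 3), with 2.63, 2.54 and 2.55 on replicates 1, 2 and 3. Raising the cutoff to the 99th percentile of those 70 genes left 40 members and 3745 of all genes called. Probe sets hybridise with different strength, so the order of genes describes signals and not transcript abundance.

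**Figure D1:**
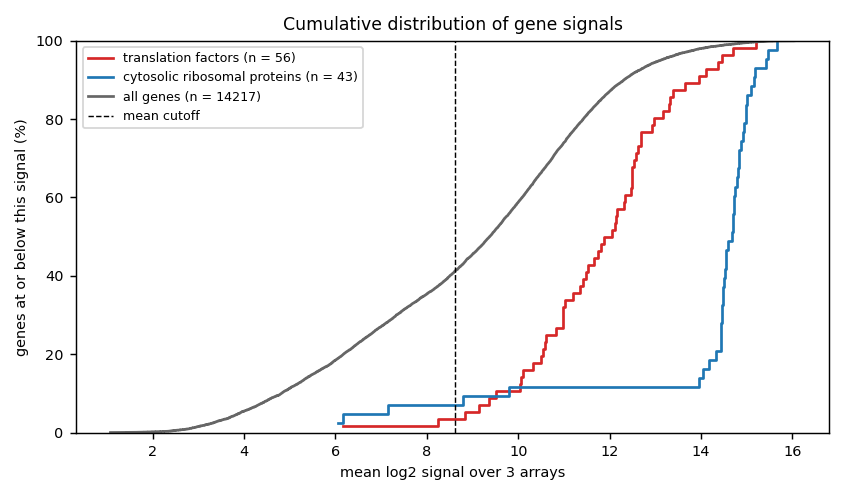
Cumulative share of genes (vertical axis, percent) by mean log2 signal over the 3 arrays (horizontal axis), for the 56 translation factors, 43 cytosolic ribosomal proteins and all 14217 genes. The curve of the translation factors lies to the right of the curve of all genes, and the dashed line marks the mean cutoff of 8.62.

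Many mRNAs of the translation machinery begin with a 5′ terminal oligopyrimidine (TOP) tract, a C at the cap followed by a run of C and T, through which mTORC1 and the RNA-binding protein LARP1 control their translation. RefSeq promoter records (build GRCr8, 250 bases before to 50 after the annotated start) were matched for 51 of the 56 members. A C at the annotated start followed by at least 4 bases that are each C or T was found in 1 of 51 members (1.96%), in 30.6% of 36 cytosolic ribosomal protein genes and in 2.96% of 11700 measured genes. With the C allowed up to 5 bases to either side of that start, the tract was found in 14 members (27.5%), in 55.6% of the ribosomal protein genes and in 18.4% of the measured genes. The windows of 30 bases around the start of 7 members are shown because they show how the tract sits relative to the annotation. Capitals mark the C and its pyrimidine run, which the end of the window cuts short in Eef1b2, Eif3f and Eif2s3. The 16th base is the annotated start, and Eef1g is printed as an elongation factor gene with no tract in the searched positions.
Eef1a1 (chr8:88225055-88225084, minus strand): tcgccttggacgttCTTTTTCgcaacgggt
Eef1b2 (chr9:72074076-72074105, plus strand): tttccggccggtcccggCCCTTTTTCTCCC
Eif2a (chr2:144911345-144911374, plus strand): ccagcgcatgggtttCTCTTTCCgggacaa
Eif3f (chr1:172369047-172369076, plus strand): tcacgcccttccgttctagCCTCTCTCTTT
Eif3m (chr3:111897179-111897208, minus strand): cgtaacaccgtgtggtaccgCTCCTTTTCC
Eif2s3 (chrX:62933685-62933714, minus strand): ggcggcagccgagcattttCCTTTTCTCTC
Eef1g (chr1:215289800-215289829, plus strand): tttctctgcggaatcaccatggcggctggg
In Eef1a1 the tract began 1 base before the annotated start, and only Eif2a had it at the start itself. The 14 members with a tract had a median signal of 2800, with a range from 466 to 37778. The 37 without one had a median of 4551 and a range from 79.3 to 26779, so both ranges overlapped almost entirely. A missing tract says only that these letters are not at these positions of the record.

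The E-box CACGTG, which reads the same on both strands and is bound by MYC and related factors, was found in the 300-base record of 12 of 51 members (23.5%). It was found in 9.38% of measured genes, in 7.08% of all genes of the table and in 8.33% of the ribosomal protein genes. The sequence CCGGAAG, searched on both strands and known as a core of sites for ETS family factors, was found in 17 members (33.3%), in 22.2% of the ribosomal protein genes, in 15.4% of measured genes and in 9.63% of all genes of the table. The letters of the 2 motifs differ, and each was counted on its own. These are matches of letters, and no binding was measured. The E-box windows of 5 members are shown, with the motif in capitals, and of these Eif4e and Eif4g1 belong to the same role group.
Eif4e (chr2:229740661-229740690, plus strand): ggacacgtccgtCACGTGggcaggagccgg
Eif4g1 (chr11:93746404-93746433, minus strand): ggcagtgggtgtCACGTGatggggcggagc
Eif3f (chr1:172368991-172369020, plus strand): caagatatgggtCACGTGgtacaaatttag
Eif5a (chr10:55143410-55143439, minus strand): aaggggcggggtCACGTGtgtgcgtcattg
Eef2 (chr7:9189297-9189326, minus strand): cacccgcgccgtCACGTGacgtgcccaacc
The motif began 80 bases before the annotated start in Eif4e, which had a second match 237 bases before it. It began 54 bases before the start in Eif4g1, whose record holds a second match after the start, 59 in Eif3f, 206 in Eif5a and 76 in Eef2. Members with the E-box had a median signal of 5228, with a range from 309 to 15874. Members without it had a median of 3466 and a range from 79.3 to 37778.

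The elongation factors had the highest median signal of the role groups, 15874, with single genes from the top to the bottom of the set. Eef1a1, the GTPase that carries aminoacyl-tRNA to the ribosome, had signals of 37285, 40152 and 35896 on replicates 1, 2 and 3, and ranked 39 among all genes. Its second probe set read 36057, 38150 and 36826, so that both probe sets lay within the same range. Eef1a2, which encodes the other form of this GTPase and is known from muscle and neurons, had signals of 126, 44.3 and 68.1. All 3 values of Eef1a2 were below the cutoff of their array (mean difference -2.44 log2 units, limma adjusted p = 1.000), and its second probe set was lower still, at 84.9, 15.6 and 31.8. The subunits of the complex that reloads eEF1A with GTP were all detected. Eef1g had a signal of 21303 ± 699, Eef1b2 17607 ± 1918 and Eef1d 5786 ± 236. Eef2, the translocase, had signals of 14654, 18032 and 14937, of which replicate 2 was highest. Eef1e1, whose protein is known as a part of the multi-tRNA synthetase complex, had the second lowest signal of the group, at 3516, 2966 and 3241. Of the 7 measured genes of this group 6 were detected.

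The regulators of elongation gave lower signals, and 3 of 4 were detected. Eef2k, the calcium-dependent kinase that inhibits eEF2, had signals of 950, 1463 and 865, with replicate 2 highest, and a log2 signal 1.44 above the cutoff (limma adjusted p = 0.00508). The methyltransferase genes Eef1akmt1 and Eef1akmt2, whose products modify lysines of eEF1A, had signals of 1552, 1164 and 1186, and of 617, 752 and 605. Eef1akmt2 was no longer called with Myh1, a muscle gene otherwise left out, among the background genes (limma adjusted p = 0.0818). Eef1akmt4 stayed below the cutoff on every array, at 378, 321 and 229 (mean difference -0.38, limma adjusted p = 1.000). At the 99th percentile cutoff 0 of the 4 were called by limma, and 0 also had an unadjusted p under 0.05. Of all 14217 genes 3745 were called by limma at that cutoff.

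All 11 measured subunits of eIF3, the large complex that holds the small ribosomal subunit and recruits the mRNA, were detected. Their mean signals lay between 12775 ± 1028 for Eif3m and 4281 ± 521 for Eif3d. Eif3m read 12486, 11922 and 13916, and Eif3d 4010, 3950 and 4882, so that replicate 3 was highest for both. Between them lay Eif3h (10704 ± 433), Eif3l (10194 ± 454), Eif3f (9237 ± 425), Eif3c (7816 ± 664), Eif3a (5904 ± 252), Eif3j (5161 ± 214), Eif3i (5117 ± 538), Eif3b (4551 ± 433) and Eif3k (4451 ± 163). The count was 11 also at the 99th percentile cutoff, and 10 where the median probe set stood for a gene. A probe set shared by Eif3e and Eif3el1, which was no member by the rule, read 8445, 8240 and 7771. The eIF3 genes had a median log2 level 3.14 ± 0.12 above the median gene.

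The factors that bind the cap and unwind the mRNA were detected throughout. Of 6 cap-binding and scaffold genes 6 were detected. Eif4g2, which encodes a scaffold that lacks the eIF4E-binding site, had signals of 21630, 22643 and 22753. The scaffolds that bind eIF4E gave 3785 ± 188 for Eif4g1 and 2359 ± 334 for Eif4g3. Eif4e, the cap-binding protein, read 7196, 6219 and 5453, Eif4e2, which binds the cap without joining eIF4G, 2759, 2884 and 2596, and Eif4e3 614, 799 and 804. Eif4e3 was the lowest of this group and lay 0.90 log2 units above the cutoff (limma adjusted p = 0.00700). All 5 genes of the helicase and its partners were detected as well. Eif4a2, one of the paired eIF4A helicases, had signals of 25653, 28912 and 25774, the second highest of the set. The paralog Eif4a1 read 5995, 6845 and 5571, and replicate 2 was highest for both helicases. Eif4a3, a core protein of the exon junction complex, read 6624, 6349 and 6832. The helicase cofactors were Eif4h, with 11124, 10753 and 8727, and Eif4b, with 3288, 3957 and 3520.

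The inhibitors of eIF4E, which release it when mTORC1 phosphorylates them, were all detected. Eif4ebp2 had signals of 4819, 4149 and 4823, Eif4ebp3 1818, 1885 and 1736, and Eif4ebp1 1015, 1170 and 961. The 3 paralogs did not overlap over the arrays, with Eif4ebp2 highest and Eif4ebp1 lowest on every array. Eif4enif1, whose product carries eIF4E into the nucleus, read 1534 ± 66.4. At the 99th percentile cutoff 1 of these 4 genes was called, beside 3745 of all 14217 genes.

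The genes that deliver the initiator tRNA and recycle eIF2 were all detected. Among the 6 genes of tRNA delivery Eif2s3y was highest and Eif2s3 lowest, and the values of Eif2s3 overlapped those of Eif2a and Eif2d. Eif2s3y, the Y-linked copy of the gamma subunit gene, read 7170, 5988 and 6739, and the X-linked Eif2s3 read 1804, 2204 and 2048. A probe set annotated to both read 775, 739 and 450, and whether the other 2 probe sets cross-hybridise between these copies was not tested. The alpha and beta subunit genes gave 3466 ± 529 (Eif2s1) and 5773 ± 431 (Eif2s2), and the alternative delivery factors 2026 ± 168 (Eif2a) and 2024 ± 166 (Eif2d). All 5 subunits of eIF2B, the exchange factor that recharges eIF2 with GTP, were called too. Eif2b4 was highest, at 3404, 2467 and 3017, and Eif2b3 lowest, at 589, 581 and 534, which was 0.53 log2 units above the cutoff (limma adjusted p = 0.00818). The call of Eif2b3 was lost with Myh1 kept among the background genes (limma adjusted p = 0.428). Eif2b1 (1490 ± 82.7), Eif2b2 (1445 ± 15.7) and Eif2b5, the catalytic subunit (1100 ± 106), lay between them. At the 99th percentile cutoff 1 of the 5 was called, beside 3745 of all 14217 genes.

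The remaining genes were those of the eIF1 and eIF1A type and a group of subunit joining factors, eIF5A and eIF6. Of 4 genes of the eIF1 and eIF1A type 4 were detected. Eif1ax, a factor for scanning and start codon choice, was highest, at 6313, 5158 and 5956, and Eif1ad lowest, at 1749, 1284 and 1715. Eif1b read 2667, 3164 and 2750, and Eif1a 2799, 2106 and 3066. Of the factors that act at joining, Eif6, which keeps the large subunit from joining too early, gave 5665 ± 346, and the GTPase gene Eif5b 2091 ± 160. Eif5a, whose protein carries the modified lysine hypusine and helps the ribosome past difficult peptide bonds, read 8140, 7380 and 8422. Its paralog Eif5a2 read 385, 418 and 596, of which replicate 1 alone was below the cutoff, and it was not called (mean difference 0.22, limma adjusted p = 0.272). The other probe set of Eif5a2 read 406, 453 and 298, above the cutoff on replicate 2 alone. It was lowest on replicate 3, where the brightest probe set was highest. At the 90th percentile cutoff Eif5a2 was called, at an adjusted p of 0.00745. The probe sets shared by Eif5 and Eif5-ps1, no members by the rule, had mean signals of 1221, 3374 and 3643.

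**Figure D2:**
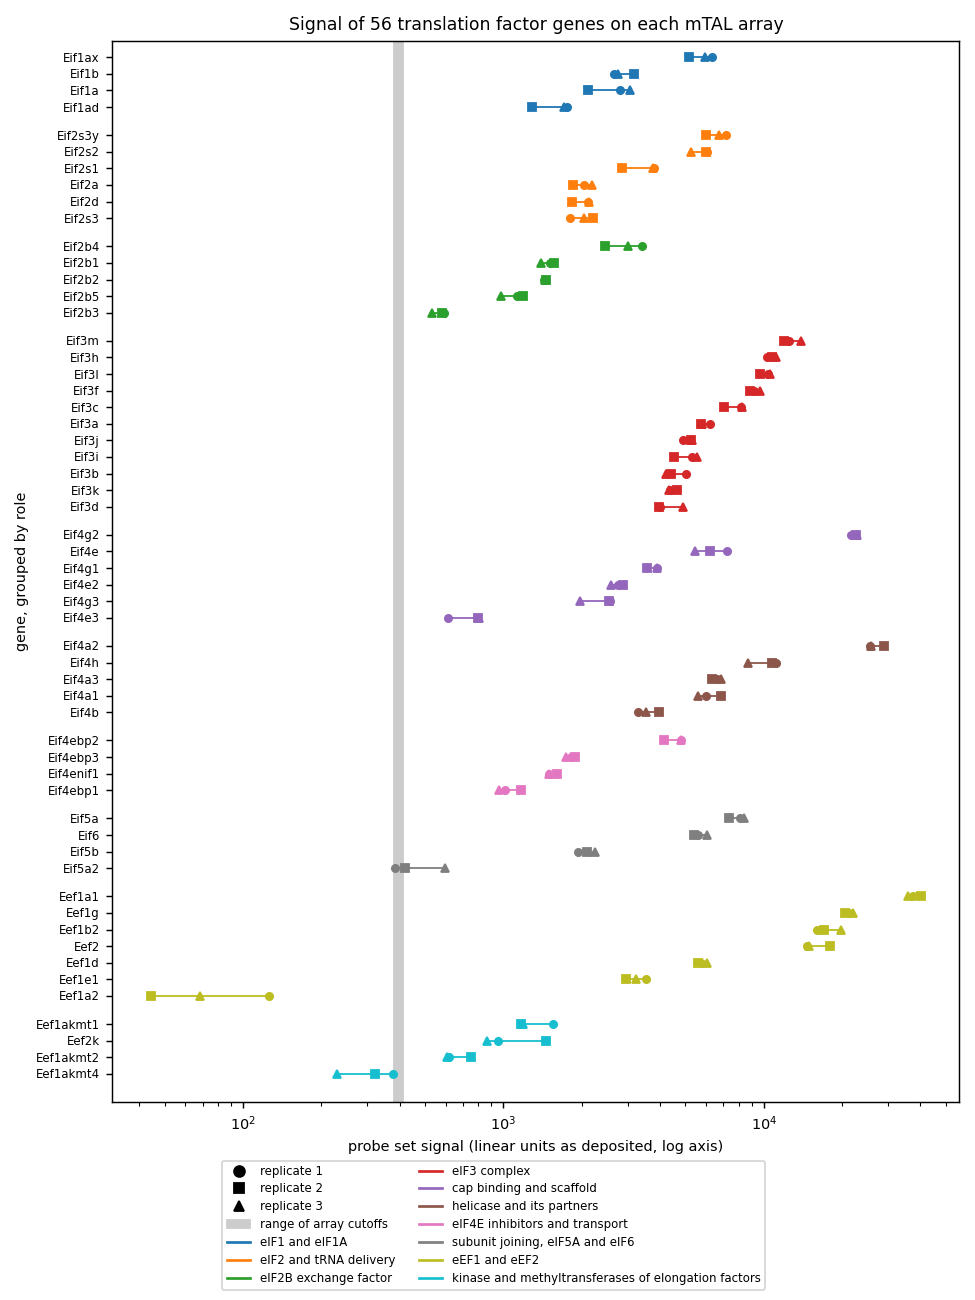
Signal of each of the 56 genes on the 3 arrays (horizontal log axis, linear units as deposited), 1 row per gene, grouped and coloured by role, with symbols for the replicates and lines for their range. The grey band from 379 to 411 marks the array cutoffs; Eef1a2 and Eef1akmt4 lie to its left on all arrays, and Eif5a2 straddles it.

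The members with the highest and the lowest signals were mostly the same on each array. Of the 5 members with the highest signal 4 were the same on all 3 arrays, and of the 10 highest 9. Of the 10 lowest 8 were the same. In the order by mean signal, 12 of the 55 neighbouring pairs did not overlap over the arrays. These included Eef1a1 above Eif4a2, Eif4a2 above Eif4g2, Eef2 above Eif3m, and Eif5a2 above Eef1akmt4. The other 43 pairs did overlap and so have no settled order. No like counts were made for other genes, and the members' mean log2 signals spanned 9.03 units.

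The SD of log2 signal over the arrays had a median of 0.13 among the 56 members, against 0.25 among all genes. From 2 arrays the members' median was 0.125 without replicate 1, 0.0679 without replicate 2 and 0.0913 without replicate 3. SDs of 2 and of 3 values are not directly comparable, and no like value is given for other genes. Bright genes vary less, with a median SD of 0.16 among the 8351 genes above the mean cutoff, so genes of like signal are the closer standard. The 28 members in the middle 50% of the members' range had a median SD of 0.12, against 0.14 for the 3158 genes in that range, and 96.4% of these members had an SD under 0.25, against 83.0% of those genes. This range was set from the members' own signals, and the difference was not tested. The largest SDs were those of Eef1a2 (0.76), Eef2k (0.40), Eef1akmt4 (0.37), Eif5a2 (0.34), Eif1a (0.28), Eif1ad (0.25), Eif2b4 (0.23) and Eef1akmt1 (0.23), and the smallest that of Eif2b2 (0.02). Only 3 of these 8 genes lay below or near the cutoff.

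**Figure D3:**
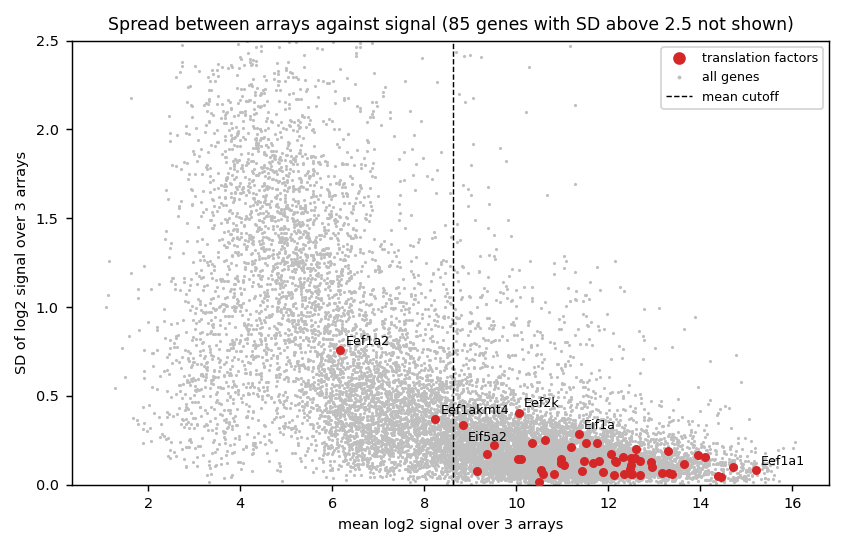
SD of log2 signal over 3 arrays (vertical axis) against mean log2 signal (horizontal axis) for the 56 translation factors and all 14217 genes, less those whose SD lies beyond the axis, with the mean cutoff dashed. Of the 56 factors 51 have an SD under 0.25, and the highest SDs are those of Eef1a2 (0.76), Eef2k (0.40), Eef1akmt4 (0.37) and Eif5a2 (0.34).

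As deposited, 22 of the 56 members were highest on replicate 3, 17 on replicate 2 and 17 on replicate 1. Among the 8351 genes above the mean cutoff the shares were 33.7%, 30.2% and 36.2%, and among all genes 34.0%, 32.1% and 33.9%. Replicate 2 was lowest for 25 members, replicate 3 for 18 and replicate 1 for 13, against 38.7%, 30.5% and 30.8% of the genes above the mean cutoff and 35.5%, 30.8% and 33.7% of all genes. The median gene lay at a log2 signal of 9.32, 9.41 and 9.43. After centring on it, the scaling planned for these counts, replicate 1 was highest for 36 members (64.3%) and replicate 3 for 7 (12.5%). The shares of the genes above the mean cutoff were 53.7% and 21.9%. Which array was most often highest among the members therefore depended on the scaling, with replicate 3 as deposited and replicate 1 after centring. Among the genes above the mean cutoff it was replicate 1 under both. Markers of other cells differed between the arrays, and their part in the members' values was not tested. The summed signal of 19 proximal tubule markers was 8234, 27093 and 81573 on replicates 1, 2 and 3, with 3 of 19 detected and none at 0. Their median log2 level relative to the median gene was -2.16, -0.17 and 1.47 on these arrays. Their SD over arrays had a median of 1.92, and so wide a spread can keep a marker that is bright on replicate 3 from being called. The summed signal of 14 TAL markers, all detected, was 271866, 264606 and 248143. Thin limb markers, 4 of 5 detected, summed to 26948, 71237 and 40766, and endothelial markers, 8 of 10 detected, to 16614, 28133 and 25902, both highest on replicate 2. Principal cell markers, 5 of 9 detected, summed to 12033, 17178 and 26738, and leukocyte markers, 2 of 10 detected, to 2361, 4423 and 3586. The summed signal of the 56 factors was 343545, 344052 and 345601.

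The probe sets of one gene gave signals that were far apart in some members and close in others. Of the 56 members, 33 had 1 probe set and 23 had several. The 32 probe sets that were not the brightest of their gene were above the cutoff on all arrays in 18 cases and on none in 12. The largest gaps were those of Eif3h, whose second probe set read 12.8, 58.8 and 10.9 against 10264, 10718 and 11130 for the brightest, of Eef2 (a mean of 49.0 against 15874), and of Eif4g3 (3.44, 30.4 and 7.26 against 2558, 2545 and 1974). Those of Eef1g and Eif4e came next, with means of 207 for the other probe set of Eef1g and 119 for the dimmest of Eif4e. The smallest gaps in mean log2 between the brightest and the dimmest probe set were those of Eef1a1 (0.03 log2 units), Eif5a2 (0.27) and Eif4b (0.27). The probe sets of Eif5a2 nonetheless went in opposite directions on replicate 3. For Eif4e, Eif4g3, Eif3h, Eef2, Eef1g and Eif3k the call rested on the brightest probe set, as no other was above the cutoff on any array. With the median over probe sets, Eif4e lay 0.52 and Eif4g3 1.22 log2 units below the cutoff, and neither they nor Eif3h and Eef2k were called.

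The dimmer probe sets were more often lowest on replicate 3 than the brightest ones. Among the probe sets above the mean cutoff, 12 of 19 other probe sets were lowest on replicate 3, against 7 of 22 brightest ones of genes with several. Over all genes the shares were 57.2% of 2329 other probe sets and 32.0% of 3234 brightest ones, set beside the members' 63.2% and 31.8%. After centring on the median gene the members' shares were 78.9% (15 of 19) and 59.1% (13 of 22), against 63.8% and 41.8% over all genes. After quantile normalization they were 57.9% (11 of 19) and 36.4% (8 of 22), against 56.1% and 30.9% over all genes. The members were not tested against genes at large. The second probe set of Eif4h read 1293, 1770 and 458 on replicates 1, 2 and 3, and that of Eif4a2 971, 1392 and 559. The third of Eif4g2 read 6680, 6337 and 3690, and the second of Eif3l 3453, 3002 and 1865, all lowest on replicate 3. The brightest probe set of Eif3l was highest on that array. The 3′ over 5′ ratios of the control transcripts, in log2, were also highest on replicate 3, with 1.48, 1.18 and 1.95 for beta-actin, 0.51, 0.43 and 0.60 for Gapdh, and 1.39, 1.39 and 1.73 for hexokinase. These ratios are a common check of RNA integrity, and their part in the result was not tested.

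**Figure D4:**
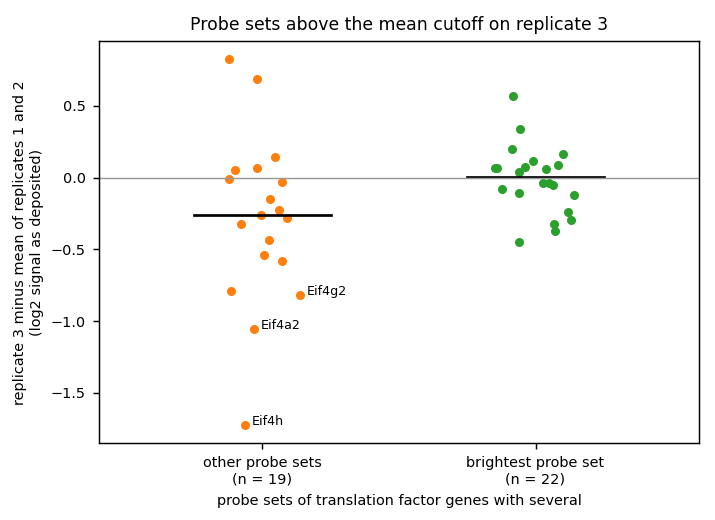
Log2 signal on replicate 3 minus the mean of replicates 1 and 2 (vertical axis), for 19 other probe sets and 22 brightest probe sets of the members with several, all above the mean cutoff; points are probe sets and bars medians. The medians are -0.26 for the other probe sets and 0.002 for the brightest, and Eif4h is lowest at -1.72.

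The genes around these factors were also detected in large part. Of 43 cytosolic ribosomal protein genes 39 were detected, led by Rps29 (52119 ± 3567) and Rpl7a (45482 ± 2643), and the median of the factors stood 2.57 ± 0.05 log2 units over the median gene, against 5.28 ± 0.04 for these genes. The lowest signal among the ribosomal protein genes was that of Rpl30 (68.9 ± 25.1), read from 1 probe set. Whether that probe set reports the transcript was not tested. Of 7 poly(A) binding and release genes 7 were detected, led by Paip2, an inhibitor of the poly(A) binding protein (11489 ± 880), and Pabpc4 (7035 ± 668), with the release factor gene Gspt2 lowest (599 ± 116). Gspt2 had a limma adjusted p of 0.0144, and it was not called without replicate 2 (0.0511) or with Myh1 among the background genes (0.372). Of 21 genes of the cytosolic aminoacyl-tRNA synthetases and their scaffolds 20 were detected, led by Qars1 (6418 ± 552) and Kars1 (5542 ± 498), with Vars1 lowest (572 ± 189). Of 8 mitochondrial translation factors 7 were detected, led by Tufm, the mitochondrial counterpart of eEF1A (10003 ± 553), and Gfm1 (3477 ± 652), with Mtrf1 lowest (437 ± 46.0). Of all genes, 53.3% were detected.

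Regulators of the factors were detected to a varying extent. Of 15 genes of the mTORC1 and S6 kinase arm 14 were detected, led by the activating GTPase gene Rheb (13117 ± 861) and the mTOR inhibitor gene Deptor (8219 ± 822), with Tbc1d7 lowest (516 ± 130). Tbc1d7 had a limma adjusted p of 0.120, and without replicate 3 it was called (0.0398). Of 11 genes of the eIF2 kinases and the integrated stress response 9 were detected, led by the transcription factor gene Atf4 (16831 ± 1703) and Ppp1r15a, a stress-induced partner of the eIF2 phosphatase, which read 4124, 6733 and 8123. The lowest was Trib3 (130 ± 23.4). Of 8 genes that make hypusine on eIF5A or diphthamide on eEF2, 4 were detected (50%), near the 53.3% of all genes. Dph3 (4668 ± 378) and Dph6 (2206 ± 430) were highest and Dph5 lowest (252 ± 51.6). The enzymes of hypusine synthesis, Dhps (1761 ± 431) and Dohh (1497 ± 89.4), were also detected. At the 99th percentile cutoff the counts were 6 of 15, 5 of 11 and 2 of 8 for these lists. For mitochondrial translation factors the count was 2 of 8, and 3745 of all 14217 genes were called. At the 90th percentile 7 of 8 genes of the modification list were called, beside 8644 of all genes.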

How the data were processed

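RNA of 3 mTAL samples was made into biotinylated cRNA for Affymetrix arrays, as the labels' protocols state. The authors deposited 1 signal intensity per probe set and array for 31099 probe sets. How probe signals were summarised and normalised is not given in the sources used here. On each array the mean signal after trimming 2% at each end was about 1000 (1000.3 on replicate 1). All values were above 0, and logs were taken without a pseudocount. Apart from 57 controls, 20826 probe sets carried 1 gene symbol, 436 more than one, and 9780 none. All 56 member symbols were found under the same gene identifier in RefSeq (GRCr8).

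Detection was tested with limma (version 3.58.1, lmFit and eBayes, one-sided) on log2 signal minus the array's cutoff over all 14217 genes, with Benjamini-Hochberg adjustment at 0.05. Myh1 was left out of the genes that set the cutoff because its annotation was in doubt. With Myh1 the list held 71 measured genes, whose highest mean signal was 42933, and 51 members were called. Members, lists and alternatives were chosen with earlier results of these data known. Every member may be named. Each companion list gives its 2 highest genes and its lowest, and others named (Dhps, Dohh) were chosen after their values were seen. Protein sequences were not used here. The number of arrays limits the precision.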

Additional observations from a re-analysis of the deposited data

How the results depend on the processing

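Quantile normalization, a common 75th percentile, a pseudocount of 16, and leaving out probe sets ending in _x_at or _s_at each left 53 members called, and all 56 calls kept their side. Leaving out each replicate also gave 53 members each time and a median member SD from 0.0679 (without replicate 2) to 0.125. The cutoff mattered most: at the 99th percentile 40 members, 3745 of all genes, 1 eIF2B gene, 1 eIF4E inhibitor gene, 0 regulators of elongation (0 also at an unadjusted p under 0.05), 5 stress response, 6 mTORC1, 2 mitochondrial and 2 modification genes were called by limma, and 7 modification genes at the 90th. With that highest cutoff the mean difference turned negative for Eef1akmt1 (-0.0781), Eef1akmt2 (-1.06), Eef2k (-0.36), Eif2b3 (-1.26), Eif2b5 (-0.31), Eif4e3 (-0.89), Eif4ebp1 (-0.38), Eif5a2 (-1.57), Tbc1d7 (-1.43), Gspt2 (-1.20), Mtrf1 (-1.64) and Vars1 (-1.30). With Myh1 kept among the background genes, 51 members were called (Eef1akmt2 and Eif2b3 were lost, as was Gspt2 of the companion lists), and Eif5a2 (-0.23), Tbc1d7 (-0.0933) and Mtrf1 (-0.31) turned negative. At the 90th percentile 8644 of all genes were called, and Eef1akmt4 (0.54) and Dph5 (0.26) turned positive. With the median over probe sets 49 members were called, the member level was 2.36, and Eif4e (-0.52), Eif4g3 (-1.22) and Vars1 (-0.46) turned negative. A TOP tract was found in 14 members when the C could lie within 5 bases of the start. For the array counts the plan named centring on the median gene, and the counts as deposited were not in it. Quantile normalization of the array counts was added after seeing the data. Arrays give no depth, and signal over background limits the low genes. No paired analysis was possible because there is only 1 group. The planned comparison of paralog proteins was not run.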
